A study of Mus musculus with 12 samples.

Results

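Kidneys of Hoxa9,10,11+/- HoxC9,10,11-/- mouse embryos were compared with kidneys of wild type embryos, both at E18.5. The libraries were chosen by the genotype in the sample labels, 3 of each group, which makes 6 of the 12 libraries of the study. RNA came from the whole kidney of embryos on a mixed 129/CD1 background. The other 6 libraries come from kidneys of genotype Hoxa9,10,11-/- HoxC9,10,11+/- (3 libraries, written Hoxa-/- Hoxc+/- below) and of genotype Hoxa9,10,11-/- HoxC9,10,11-/- (3 libraries, written Hoxa-/- Hoxc-/-). For the kidneys of this last group the study's own text gives Hoxa11 as +/- or +/+ and the labels give it as -/-. The study also reports that kidneys could not be detected at E18.5 in embryos of the genotype in the labels. The counts cannot settle this conflict. The names here follow the labels, although Hoxa11 may not be homozygous mutant in this group. The mutant alleles were made by recombineering and carry frameshifts in the first exons of the 3 neighbouring genes, with a small deletion and an inactive lox site left in each. Transcripts of these genes can still be made, so read counts do not check the alleles. Libraries are called W1 to W3 for wild type and M1 to M3 for Hoxa+/- Hoxc-/-, by rising embryo number, and values are given in this order. Total counts ran from 33106649 in M1 to 47067903 in M2. M1 to M3 went through another sequencing run than the remaining 9 libraries, so that genotype and run cannot be told apart. Embryos are the replicates, and the p-values measure the spread between them.

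Of 15902 genes tested, 376 (2.36%) passed an adjusted p of 0.05 (edgeR, Benjamini-Hochberg over all genes tested), 133 (0.836%) of them higher and 243 (1.53%) lower in Hoxa+/- Hoxc-/- kidneys. None of the 10 genes of groups Hox9, Hox10 and Hox11 was among them in edgeR (DESeq2, which called 8.29% of all genes tested, called 2, Hoxa9 and Hoxa10), whereas Hoxc5, next to Hoxc4 near the opposite end of the Hoxc cluster, rose. Genes of the extracellular matrix, among them Lum and Matn2, rose in 7 of 27 cases in edgeR and fell in 0, but 2 passed in the fit adjusted for GC content and 0 in limma, which called 0.654% of all genes tested (DESeq2 called 16). In the renal stroma list Dlk1, Smoc2 and Ntn1 rose in edgeR, with Dlk1 alone past the threshold in the GC-adjusted fit and none in limma. In edgeR no gene of the cap mesenchyme list passed the threshold (DESeq2 called 4 of 16, and limma 1), and Ret of the ureteric bud tip and Dkk1 of the early nephron fell. The calls of Hoxc5, Matn2, Dlk1, Ret and Dkk1 did not hold in the fit of all 12 libraries. The largest folds included falls of pseudogenes and of Adarb2 and rises of copies of Mettl7a near the Hoxc cluster, and Rpl29 and Atp6v0c, at a higher level, rose too.

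Hox genes encode homeodomain transcription factors that lie in clusters and act along the body axis in the order of their genes. Groups Hox9 to Hox11 act in the intermediate mesoderm, where Hox11 proteins are needed for Gdnf in the metanephric mesenchyme and thereby for outgrowth and branching of the ureteric bud. Members of a group can stand in for each other, so that phenotypes appear as further copies are lost.

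The Hoxc genes that carry the homozygous mutations were measured in every library. Hoxc10 had 51.6, 60.3 and 68.4 CPM (counts per 1e6 of the effective library size) in wild type and 33.1, 37.8 and 53.4 CPM in Hoxa+/- Hoxc-/- kidneys. M3 lay inside the range of wild type while M1 and M2 lay under it, and the log2 fold change was -0.54 ± 0.19 (SE) with an adjusted p of 0.164. For Hoxc9 the values were 11.7, 12.03 and 15.9 CPM against 9.44, 11.4 and 14.4 CPM, and for Hoxc11 they were 1.61, 1.63 and 1.87 CPM against 1.15, 1.54 and 2.08 CPM. The groups overlapped for both genes, with log2 fold changes of -0.17 and -0.09.

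The Hoxa genes are heterozygous in these kidneys. Hoxa10 gave 129, 156 and 168 CPM in wild type and 116, 107 and 118 CPM in Hoxa+/- Hoxc-/- kidneys. All 3 mutant libraries were under all 3 of wild type, and the log2 fold change of -0.41 ± 0.11 had an adjusted p of 0.0957. Hoxa9 gave 25.02, 24.99 and 26.98 CPM against 30.5, 33.1 and 32.0 CPM. Here the mutant libraries were the higher ones, without overlap, at a log2 fold change of 0.31 ± 0.08 and an adjusted p of 0.0847. Hoxa11 overlapped between the groups, at 45.4, 54.1 and 61.0 CPM against 55.5, 63.5 and 54.6 CPM. The 4 intact paralogs of the same groups, Hoxb9, Hoxd9, Hoxd10 and Hoxd11, overlapped as well, with log2 fold changes of 0.01, 0.09, 0.02 and 0.22. Of the 10 genes, 3 had an unadjusted p under 0.05, as had 3349 (21.1%) of all genes tested. Over the 10 genes the median log2 fold change was 0.01, the same as that of all genes tested. Of the 10, 2 did not overlap between the groups, against 4228 (26.6%) of all genes tested. Per kilobase of exon, Hoxa10 was the most abundant of the mutated genes in wild type (46.2 CPM per kb), followed by Hoxc10 (31.5 CPM per kb) and Hoxa11 (23.4 CPM per kb), and Hoxc11 was the least abundant (0.843 CPM per kb). In Hoxa+/- Hoxc-/- kidneys the means of Hoxa10, Hoxc10 and Hoxa11 were 34.8, 21.7 and 25.3 CPM per kb.

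**Figure D1:**
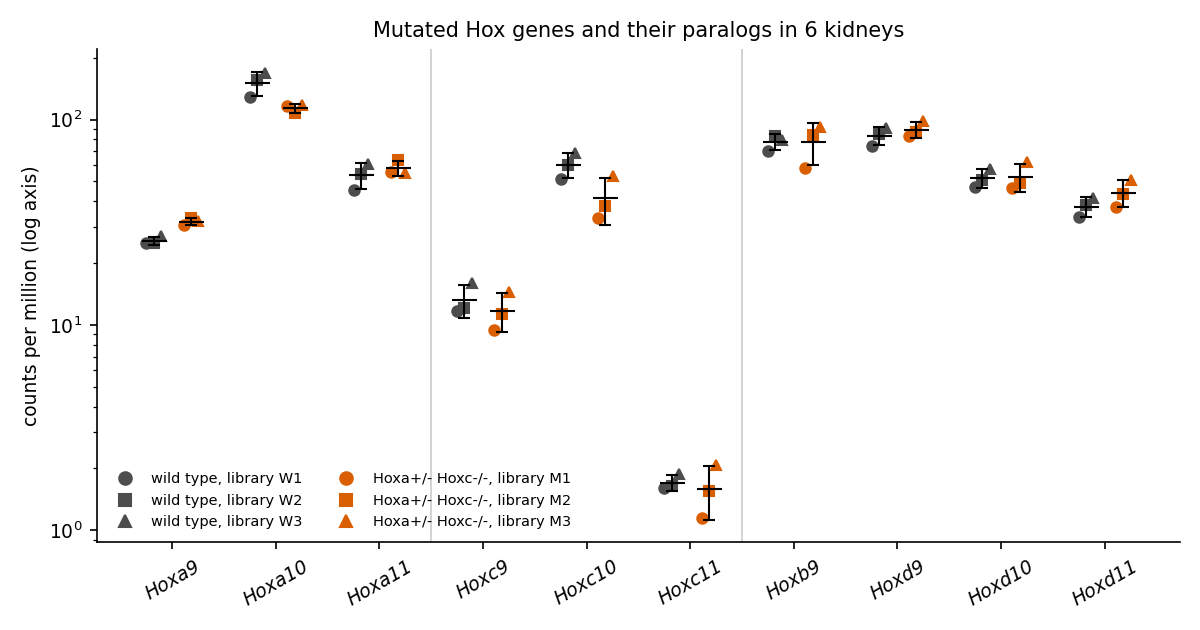
CPM on a log axis for the 6 mutated Hox genes and 4 intact paralogs in 3 wild type (grey) and 3 Hoxa+/- Hoxc-/- (orange) kidneys, 1 point per library, with the mean and SD of each group as bars. Only Hoxa9 and Hoxa10 were free of overlap between the groups, in opposite directions, and none of the 10 passed the threshold.

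In edgeR Hoxc5 was the 1 gene of 24 other Hox genes tested that passed the threshold, beside 2.36% of all genes tested. DESeq2 called 5 of the 24 and limma on the deposited log2 values 0, beside 8.29% and 0.654% of all genes tested. An unadjusted p under 0.05 was found for 7 of them, against 21.1% of all genes tested. Hoxc5 measured 2.83, 3.32 and 3.01 CPM in wild type and 5.17, 5.58 and 6.90 CPM in Hoxa+/- Hoxc-/- kidneys. Every mutant library was above every wild type library, and the log2 fold change was 0.95 ± 0.17 with an adjusted p of 0.0376. It passed in 1 of the 6 fits that each leave a library out, and in 7 of the 10 other settings. The fit of all 12 libraries belongs to these settings, and Hoxc5 did not pass in it (adjusted p 0.48). Its neighbours Hoxc4, Hoxc6 and Hoxc8, singled out after their values were seen, had log2 fold changes of 0.56, 0.76 and 0.69 with adjusted p of 0.136, 0.11 and 0.0935. The groups did not overlap for any of these 4 genes. Hoxc8, for example, had 7.22, 8.67 and 10.9 CPM in wild type and 12.98, 13.6 and 16.6 CPM in Hoxa+/- Hoxc-/- kidneys. In the fit of all 12 libraries Hoxc4, Hoxc5, Hoxc6 and Hoxc8 had log2 fold changes over wild type of -0.02, 0.77, 0.57 and 0.73 in Hoxa-/- Hoxc-/- kidneys and of 0.23, 0.86, 0.80 and 0.62 in Hoxa-/- Hoxc+/- kidneys, none past the threshold there in any of the 3 mutant genotypes. The same Hoxa-/- Hoxc+/- library was far above the other 2 for all 4 genes, for example at 23.7, 7.86 and 8.87 CPM of Hoxc8. Beside the 26.6% of all genes tested whose groups did not overlap, this held for 7 of 10 genes tested in the Hoxa cluster, 6 of them higher, and in the Hoxb cluster (8 genes) and in the Hoxd cluster (9 genes) 0 genes were free of overlap. The median log2 fold change was 0.56 over 7 Hoxc genes, 0.21 over the Hoxa genes, 0.10 over the Hoxb genes and 0.02 over the Hoxd genes.

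Markers of the kidney were present in all 6 libraries. Six2 of nephron progenitors ran from 64.3 to 107 CPM, Pdgfra of the stroma from 187 to 255 CPM, Podxl of podocytes from 587 to 727 CPM, Slc12a1 of the loop of Henle from 476 to 704 CPM and Aqp2 of the collecting duct from 166 to 274 CPM. Some markers of neighbouring tissue were close to 0: the steroid enzyme Cyp11b1 and Adipoq of fat cells reached at most 0.0947 and 0.0545 CPM, and Th of the adrenal medulla 0.169 CPM. Star of the adrenal cortex, from 3.30 to 4.65 CPM, and Upk1a and Upk2 of the urothelium, up to 12.97 and 9.09 CPM, were present at low levels. Alb, the main product of the fetal liver, was at 1.12, 0.687 and 0.885 CPM in wild type and at 7.38, 2.24 and 25.4 CPM in Hoxa+/- Hoxc-/- kidneys, highest in M3. M3 also held the most Hbb-bs, a globin of red cells, with 2740 CPM against 275 to 750.2 CPM in the other 5. The summed level of 33 proximal tubule genes set 1 library of each group apart, with 8688, 4257 and 3175 CPM in wild type and 9049, 4735 and 4494 CPM in Hoxa+/- Hoxc-/- kidneys, highest in W1 and M1. The part of these markers in the differences below was not tested. In whole kidneys, fewer cells of a type and less RNA per cell cannot be told apart.

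Xist, which is transcribed from the inactive X of females, had 3, 6 and 2 counts in wild type and 2, 16418 and 5 counts in Hoxa+/- Hoxc-/- kidneys. The Y-linked gene Ddx3y had 3529, 3683 and 3664 counts in wild type and 2135, 0 and 2612 counts in Hoxa+/- Hoxc-/- kidneys. M2 was thus the 1 female among the 6. A fit without M2 called 63 genes, of which 62 belong to the 376.

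Most of the differences were small: 267 of the 376 genes differed by at most 2-fold, and the median log2 fold change was 0.73 among genes called higher and -0.56 among genes called lower. Groups did not overlap for any of the 376. Of these, 278 (70 higher, 208 lower) also had all 3 Hoxa+/- Hoxc-/- libraries above or below all 9 libraries of the other 3 genotypes. This held for 1492 (9.38%) of all genes tested. The 376 were called on 6 of these libraries and were already apart from wild type, as were 4228 (26.6%) of all genes tested. Part of the criterion was thus met by the choice of genes, and the 2 shares are not comparable. The count moved in the 6 leave-out fits, each without 1 library, to 60 without W2, 70 without W3, 63 without M2, 99 without M3, 339 without M1 and 549 without W1. Of 61 genes named by rule and called, 51 kept the call without W1, 26 without W2, 28 without W3, 47 without M1, 28 without M2 and 32 without M3. In 41 genes (15 higher, 26 lower) the call held under 15 other settings, with the fit that leaves out X and Y genes set aside, and 35 of these 41 were outside all 9 other libraries. The first axis of a principal component analysis of the 6 libraries held 43.5% of the variance and parted the genotypes, and the second (25.9%) parted W1 and M1 from the other 4.

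**Figure D2:**
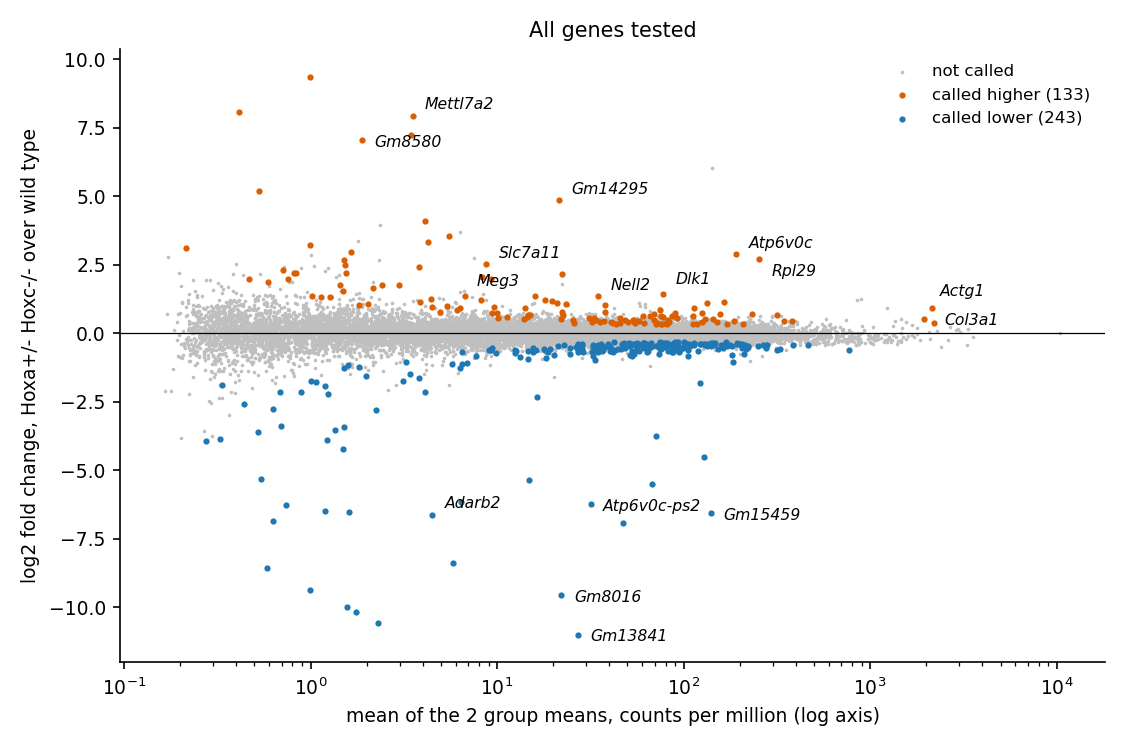
Log2 fold change of Hoxa+/- Hoxc-/- over wild type against the mean level (CPM, log axis) for the 15902 genes tested, 1 point per gene, with genes past the threshold in orange (133 higher) and blue (243 lower). Most called genes lie close to 0, while pseudogenes such as Gm13841 and Atp6v0c-ps2 and the gene Mettl7a2 lie far from it.

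Among the 12 largest rises with a mean of at least 1 CPM, 3 were pseudogenes. Atp6v0c, which encodes the proteolipid subunit of the vacuolar proton pump, stood at 48.2, 44.0 and 43.8 CPM in wild type and at 382, 314 and 316 CPM in Hoxa+/- Hoxc-/- kidneys. Rpl29, a protein of the large ribosomal subunit, gave 61.5, 73.3 and 66.3 CPM against 416, 438 and 465 CPM. For both genes the groups were far apart, with log2 fold changes of 2.90 ± 0.10 and 2.71 ± 0.09 and adjusted p of 1.88e-05 and 1.82e-05, past the threshold in all 6 leave-out fits. Gm14295, which is annotated as protein coding, rose from 1.44, 1.66 and 1.16 CPM to 32.2, 45.8 and 46.9 CPM (log2 fold change 4.87 ± 0.21, adjusted p 4.54e-05), a call that limma on the deposited log2 values did not make (adjusted p 0.938). Nlrp1a, an inflammasome sensor, measured 1.09, 0.734 and 0.784 CPM in wild type and 6.26, 9.79 and 14.4 CPM in Hoxa+/- Hoxc-/- kidneys, the lowest mutant library still far above wild type (adjusted p 0.00441, and 0.0552 in the fit of all 12 libraries). Slc7a11, the transport subunit of the cystine and glutamate exchanger, measured 2.92, 2.51 and 2.43 CPM against 11.5, 16.1 and 17.2 CPM. Its groups did not overlap, and its log2 fold change was 2.51 ± 0.19 with an adjusted p of 0.00131. The transcribed pseudogene Gm8580 had 3 counts over the wild type group and 477 over the mutant group, a ratio of 148 with a 95% counting interval from 50.4 to 722. Olfr856-ps1, Gm6682, LOC101056185 and 2210039B01Rik, with log2 fold changes from 2.67 to 4.09, complete the 12 together with Mettl7a2 and AB099516, described with the genes near the Hoxc cluster. Limma did not call Gm8580, Olfr856-ps1, LOC101056185 or 2210039B01Rik (adjusted p 0.947, 0.571, 0.12 and 0.0646).

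Of the 12 largest falls, 7 were pseudogenes. Gm15459 had 299, 269.7 and 259 CPM in wild type and 3.54, 2.98 and 2.25 CPM in Hoxa+/- Hoxc-/- kidneys, and LOC101056094 had 77.0, 96.0 and 108 CPM against 0.514, 1.18 and 0.557 CPM. Both are annotated as pseudogenes, and their mutant libraries held a small part of the wild type level (log2 fold changes -6.57 ± 0.18 and -6.92 ± 0.29). Gm13841 had 6477 counts over the wild type group and 3 over the mutant group, a ratio of 2315 (95% counting interval 792 to 11227). The lncRNA Gm8016 had 5221 and 7 counts, and the pseudogene Ftl2 had 1374 and 4 counts. Rpl3-ps2, Gm18683 and 6330411D24Rik had 553, 413 and 369 counts in wild type and 0 in all 3 mutant libraries, which makes them at least 198-fold, 148-fold and 132-fold lower at a floor of 3 counts over the group. Adarb2, a protein-coding gene of the adenosine deaminase family that acts on RNA, fell from 5.94, 7.74 and 12.9 CPM to 0.121, 0 and 0.150 CPM (adjusted p 0.00373). Gm5506 and Gm14399, with 375 and 281 counts against 4 and 3, and Atp6v0c-ps2 were the others of the 12.

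Reads that aligned at more than 1 position were removed by the authors, so that levels of near-identical copies rest on the bases that tell them apart and are uncertain, and genes and their copies were also summed. Atp6v0c-ps2 fell from 65.7, 58.1 and 64.1 CPM to 0.968, 0.804 and 0.729 CPM as Atp6v0c rose, and the sum of both was 114, 102 and 108 CPM in wild type and 383, 315 and 316 CPM in Hoxa+/- Hoxc-/- kidneys. The sum was thus higher in every mutant library as well (means 108 ± 5.92 and 338 ± 38.9 CPM, SD, n = 3). It does not hold the removed reads that fit both copies, so it cannot settle the level of the pair. Copies of Rpl29 were not summed. Rpl3, the parent of Rpl3-ps2, was at 1546, 1773 and 1681 CPM against 1375, 1453 and 1461 CPM, and its pseudogene added at most 5.44 CPM to it. Rpl3 had a log2 fold change of -0.22 and an adjusted p of 0.176. Pisd-ps1 fell from 4.12, 5.14 and 8.04 CPM to 1.36, 1.76 and 2.36 CPM, while Pisd, a phospholipid enzyme of mitochondria, overlapped between the groups (log2 fold change 0.08). Pseudogenes of both annotated kinds were called in 20 of 140 cases (14.3%), 8 higher and 12 lower, and protein-coding genes in 330 of 14894 (2.22%).

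The other mutant genotypes were sequenced with wild type and share its libraries as controls. Their values stand beside those of Hoxa+/- Hoxc-/- kidneys in a fit of all 12 libraries. Each difference of Hoxa+/- Hoxc-/- from another genotype, here and below, is also a difference of sequencing run. In that fit 310 of 16260 genes (1.91%) differed between Hoxa+/- Hoxc-/- and Hoxa-/- Hoxc+/- kidneys, and 1944 (11.96%) between Hoxa+/- Hoxc-/- and Hoxa-/- Hoxc-/- kidneys. Of the 140 genes named by rule and tested, 23 and 49 did. Many of these were named as called genes or largest changes of the same Hoxa+/- Hoxc-/- libraries. Their shares are thus raised by the choice and are not comparable with those of all genes. Atp6v0c averaged 44.2 CPM in wild type, 50.5 CPM in Hoxa-/- Hoxc+/-, 327 CPM in Hoxa+/- Hoxc-/- and 56.8 CPM in Hoxa-/- Hoxc-/- kidneys. Rpl29 averaged 65.4, 74.7, 426 and 62.2 CPM in the same order, and Gm15459 averaged 269, 295, 2.83 and 288 CPM. These genes stood apart in Hoxa+/- Hoxc-/- kidneys alone, with adjusted p of 1.7e-07, 0.000141 and 7.03e-09 for the difference from Hoxa-/- Hoxc+/- and 3.15e-07, 5.44e-05 and 7.31e-09 for that from Hoxa-/- Hoxc-/-. All 12 of the largest falls and 8 of the 12 largest rises were outside all 9 other libraries, beside 1492 (9.38%) of all genes tested. They were picked as called genes with large folds and no overlap with wild type. Their separation from wild type was thus fixed by the choice, and these shares are not comparable. The 4 rises not outside all 9 are Mettl7a2, AB099516, Gm6682 and Slc7a11. Slc7a11 averaged 2.55, 7.49, 14.4 and 13.5 CPM and Gm6682 averaged 0.744, 4.10, 7.505 and 6.90 CPM in the 4 genotypes. All 3 mutant genotypes were above wild type for these, and the log2 fold changes of Slc7a11 over wild type were 1.549, 2.501 and 2.407. Its level in Hoxa+/- Hoxc-/- kidneys was not past the threshold against Hoxa-/- Hoxc+/- (log2 difference 0.95, adjusted p 0.0973) or Hoxa-/- Hoxc-/- kidneys (0.09, adjusted p 0.866).

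**Figure D3:**
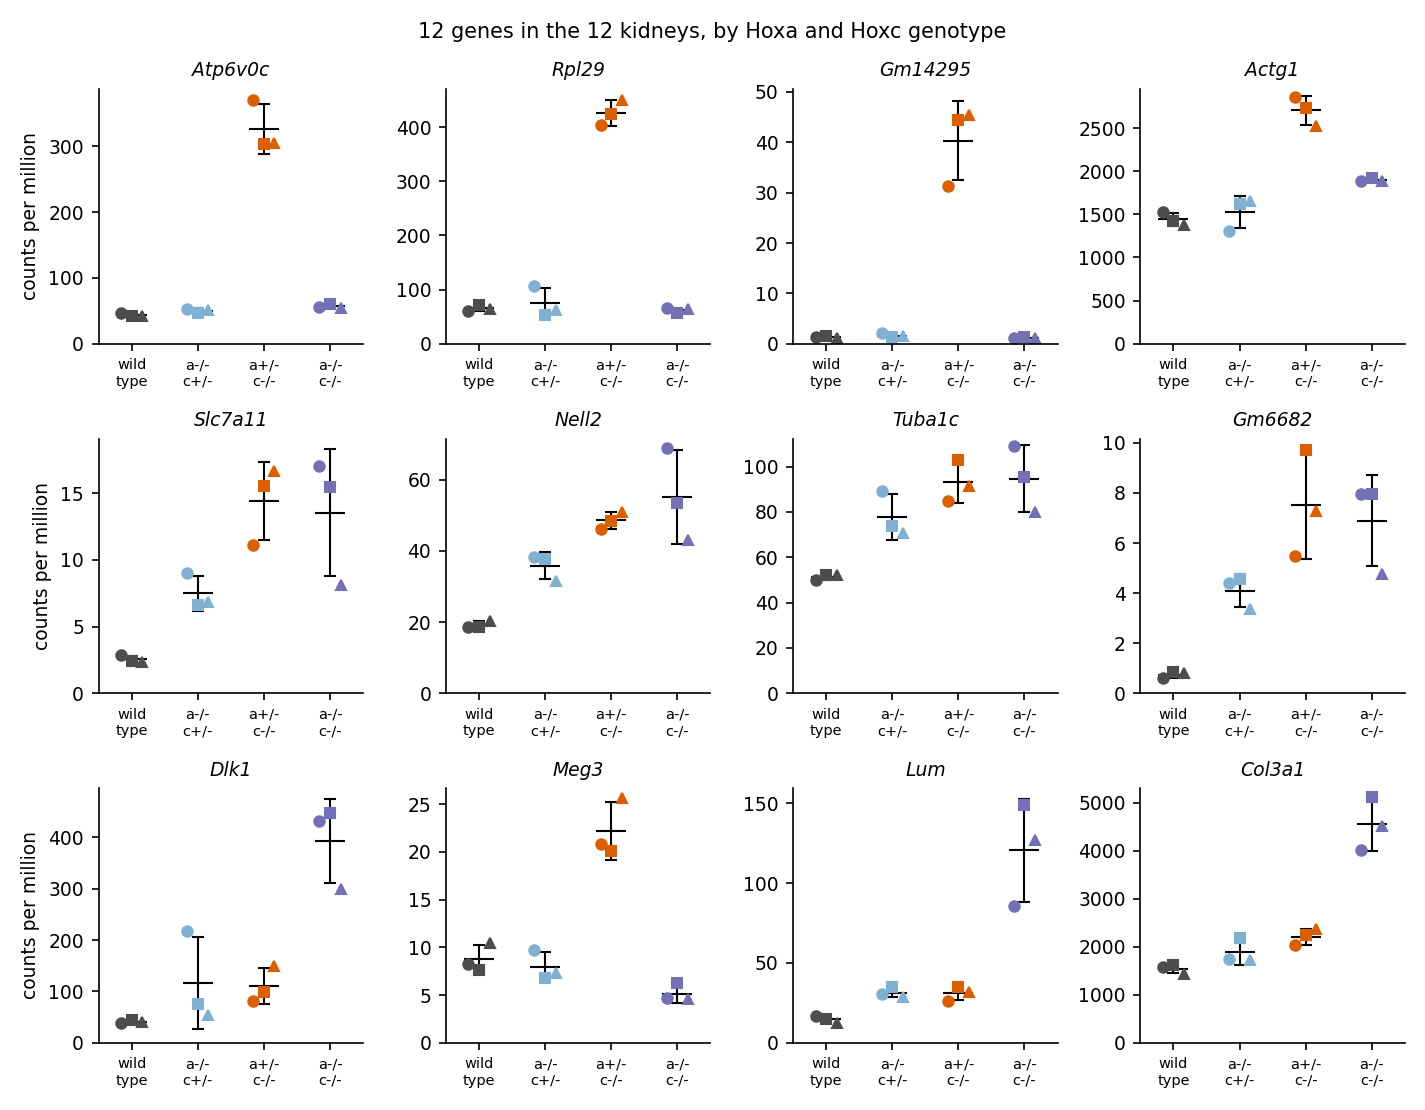
CPM of 12 genes in the 12 kidneys, 1 point per library, with the mean and SD of each genotype (n = 3) as bars. On the axis, a and c stand for the Hoxa and Hoxc genotype. Atp6v0c, Rpl29, Gm14295 and Actg1 were highest in Hoxa+/- Hoxc-/- kidneys, Slc7a11, Nell2, Tuba1c and Gm6682 were above wild type in every mutant library, and Dlk1, Lum and Col3a1 were highest in Hoxa-/- Hoxc-/- kidneys.

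Within 10 Mb of the Hoxc cluster, 11 of 161 genes tested (6.83%) passed the threshold, 8 higher and 3 lower. On the rest of chromosome 15, 11 of 477 (2.31%) passed. The 11 near the cluster include Mettl7a2, AB099516 and Mettl7a3, which passed the filter through the mutant group alone. Mettl7a2 and AB099516 also overlap on the genome, so no excess near the cluster is read from these shares. Mettl7a2, a gene of the methyltransferase-like family, had 3 counts over the wild type group and 852 over the mutant group, a ratio of 265 with a 95% counting interval from 90.3 to 1287. AB099516 starts at the same base (chr15:100353200-100384435, mm10) and overlaps Mettl7a2, so reads of the pair cannot be fully parted, and its ratio was 157 (67.0 to 484). Mettl7a3, 2573 kb from the cluster, had 0 counts in wild type and 102 over the mutant group, at least 31.7-fold higher. Mettl7a1, the abundant member of this group, gave 36.6, 31.1 and 29.6 CPM in wild type and 49.9, 38.4 and 32.5 CPM in Hoxa+/- Hoxc-/- kidneys, with overlap. The median log2 fold change of the 4 members tested was 7.60, or 6.12 with Mettl7a3 at its bound. It rests on Mettl7a2, AB099516 and Mettl7a3, which passed the filter through the mutant group alone, and it counts the overlapping pair as 2 members. It is therefore not compared with the median of all genes tested. In the fit of all 12 libraries Mettl7a2 averaged 0.0248 CPM in wild type, 2.68 CPM in Hoxa-/- Hoxc+/-, 6.81 CPM in Hoxa+/- Hoxc-/- and 11.8 CPM in Hoxa-/- Hoxc-/- kidneys. The groups with 2 mutant copies of Hoxc did not differ in it by test (log2 difference -0.80, adjusted p 0.419), nor did Hoxa+/- Hoxc-/- and Hoxa-/- Hoxc+/- kidneys (1.33, adjusted p 0.263).

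Nell2, a secreted protein with EGF-like domains that lies 7392 kb from the cluster, measured 19.2, 19.1 and 20.8 CPM in wild type and 47.7, 50.05 and 52.8 CPM in Hoxa+/- Hoxc-/- kidneys. The groups were narrow and far apart, and the log2 fold change of 1.35 ± 0.08 (adjusted p 0.000336) passed the threshold in all 10 other settings and in all 6 leave-out fits. Tuba1c, an alpha tubulin, had 51.2, 53.7 and 53.4 CPM against 87.2, 106 and 94.3 CPM, and it too passed in all of them (0.86 ± 0.08, adjusted p 0.00444). In the 4 genotypes in the order used for Atp6v0c, Nell2 averaged 19.2, 35.9, 48.6 and 55.1 CPM and Tuba1c averaged 51.5, 77.8, 93.0 and 94.7 CPM. Both means were lowest in wild type and highest in Hoxa-/- Hoxc-/- kidneys. Neither gene differed by test between Hoxa+/- Hoxc-/- and Hoxa-/- Hoxc+/- kidneys (adjusted p 0.169 and 0.314) or between Hoxa+/- Hoxc-/- and Hoxa-/- Hoxc-/- kidneys (0.501 and 0.925). Galnt6, which starts the addition of O-linked sugars to proteins, rose from 1.53, 1.30 and 1.06 CPM to 2.81, 2.83 and 2.62 CPM, and Dip2b rose from 42.4, 43.4 and 48.6 CPM to 56.8, 65.4 and 65.4 CPM. Lower were Rpap3, a partner of the chaperone Hsp90 (42.0, 42.0 and 40.5 CPM against 24.5, 29.1 and 26.2 CPM), Yaf2 of Polycomb complexes (42.5, 56.1 and 52.0 CPM against 32.8, 30.7 and 31.8 CPM) and Tmem106c. The adjusted p of these genes ran from 0.0159 for Rpap3 to 0.0477 for Tmem106c, and the groups did not overlap for any of them. Nell2, Tuba1c and Rpap3 kept their calls in a fit adjusted for GC content and exon length (the GC-adjusted fit), whereas Dip2b, Galnt6, Yaf2 and Tmem106c did not, with log2 fold changes there of 0.34, 1.04, -0.43 and -0.42.

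**Figure D4:**
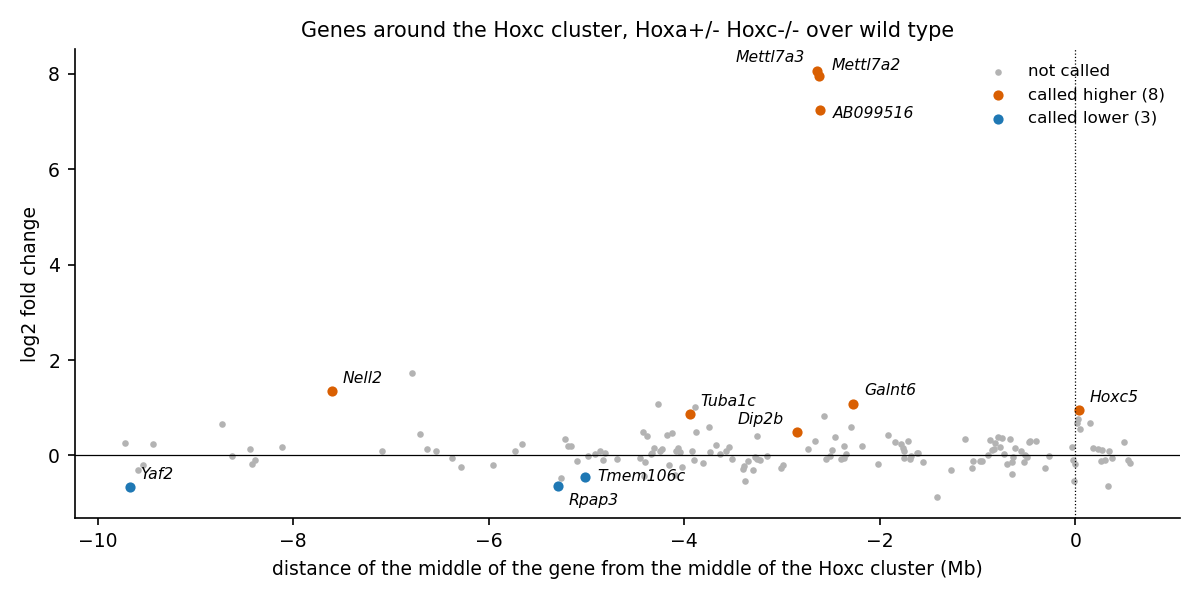
Log2 fold change of the 161 genes tested within 10 Mb of the Hoxc cluster against the distance of each gene from the middle of the cluster (Mb), 1 point per gene, with called genes in orange (8 higher) and blue (3 lower). The Mettl7a copies lie together at the top, and the fitted values of Mettl7a2, AB099516 and Mettl7a3 rest on 0 to 5 counts in wild type.

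Near the Hoxa cluster, 4 of 118 genes tested (3.39%) passed the threshold, against 14 of 685 (2.04%) on the rest of chromosome 6. Snx10, a sorting nexin of endosomes 565 kb from the cluster, was at 14.8, 15.04 and 15.2 CPM in wild type and at 9.92, 9.85 and 9.73 CPM in Hoxa+/- Hoxc-/- kidneys. Cycs, the gene of cytochrome c, fell from 241, 241 and 250.2 CPM to 186, 179.7 and 181 CPM, and the GTPase gene Gimap4 fell from 105, 118 and 116 CPM to 74.99, 69.1 and 78.8 CPM. Mmrn1, a protein of platelets and endothelium, rose from 3.43, 2.37 and 2.10 CPM to 6.72, 5.52 and 6.37 CPM. For these 4 genes the groups did not overlap, and the adjusted p ran from 0.0157 for Gimap4 to 0.0368 for Mmrn1. In the GC-adjusted fit Gimap4 and Cycs lost their calls, at log2 fold changes of -0.34 and -0.22 against -0.60 and -0.42 without the adjustment. In Hoxa-/- Hoxc-/- kidneys, in the fit of all 12 libraries, Mmrn1 averaged 17.6 CPM against 6.01 CPM in Hoxa+/- Hoxc-/- kidneys, a difference past the threshold (adjusted p 0.00735), while the latter did not differ from wild type past the threshold there (0.102).

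The imprinted region between Dlk1 and Dio3 on chromosome 12 held 2 called genes among 8 tested, both higher, beside 0.836% of all genes tested. Dlk1, a membrane protein related to Notch ligands that is expressed from the paternal copy, gave 40.2, 45.0 and 41.3 CPM in wild type and 84.2, 103 and 154 CPM in Hoxa+/- Hoxc-/- kidneys. Meg3, the maternally expressed lncRNA next to it, gave 8.45, 7.79 and 10.7 CPM against 21.5, 20.8 and 26.5 CPM. The mutant libraries were the higher ones for both genes, with M3 at the top, and the adjusted p was 0.0216 for Dlk1 and 0.00933 for Meg3 (log2 fold change 1.35 ± 0.16). Dlk1 kept its call in 3 and Meg3 in 5 of the 6 leave-out fits. The promoter windows of both genes are shown because the pair moved together. They are RefSeq sequences of GRCm38.p6, 300 bases each on the plus strand, at chr12:109452573-109452872 for Dlk1 and chr12:109540746-109541045 for Meg3, and capitals mark matches to TTTATG or TTTACG on either strand, letters known to be bound by homeodomains of posterior Hox groups:
Dlk1: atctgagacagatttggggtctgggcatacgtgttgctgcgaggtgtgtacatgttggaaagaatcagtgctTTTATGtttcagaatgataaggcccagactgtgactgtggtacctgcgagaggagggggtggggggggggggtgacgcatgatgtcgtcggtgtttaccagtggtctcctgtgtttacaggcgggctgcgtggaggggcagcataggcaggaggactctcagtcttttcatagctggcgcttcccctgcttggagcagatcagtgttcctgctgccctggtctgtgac
Meg3: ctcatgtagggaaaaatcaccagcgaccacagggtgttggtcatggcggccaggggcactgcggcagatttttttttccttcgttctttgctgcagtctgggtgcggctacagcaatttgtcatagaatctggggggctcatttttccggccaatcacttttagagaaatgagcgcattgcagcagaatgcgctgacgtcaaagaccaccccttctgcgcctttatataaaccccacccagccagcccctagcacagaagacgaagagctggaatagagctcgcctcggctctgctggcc
The Dlk1 window held 1 match and the Meg3 window 0. The letters were chosen after the sequences were at hand, and 4783 of all 32851 promoter windows (14.6%) hold them, as do 1615 of 15703 windows (10.3%) of genes tested, 13 of 107 windows (12.1%) of genes called higher and 24 of 215 windows (11.2%) of genes called lower.

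Meg3 and Dlk1 differed in the other genotypes. In the fit of all 12 libraries Meg3 averaged 8.75 CPM in wild type, 7.94 CPM in Hoxa-/- Hoxc+/-, 22.2 CPM in Hoxa+/- Hoxc-/- and 5.15 CPM in Hoxa-/- Hoxc-/- kidneys. Its level was raised in Hoxa+/- Hoxc-/- kidneys alone, which are also the only ones of their run (adjusted p 0.00315 and 0.000182 for the differences from the other mutants). Dlk1 averaged 41.1, 116, 110.3 and 393 CPM in the same order, and its difference from Hoxa-/- Hoxc-/- kidneys had an adjusted p of 0.0224, while its difference from wild type did not pass in this fit (adjusted p 0.22). Among Hoxa-/- Hoxc+/- kidneys 1 library held 218 CPM of Dlk1, against 74.8 and 54.1 CPM in the others. Rian, a further maternally expressed RNA of the region, was at 28.3, 29.4 and 31.2 CPM in wild type and 32.7, 43.1 and 52.3 CPM in Hoxa+/- Hoxc-/- kidneys, without overlap and with an adjusted p of 0.131. The median log2 fold change of the region was 0.47. Of 20 other imprinted genes, which had a median of 0.06, Peg3 and its neighbour Zim1 rose in edgeR, beside the same 0.836%. DESeq2 called 3 of the 20 and limma on the deposited log2 values 0, beside 8.29% and 0.654% of all genes tested. Zim1 had 14.9, 11.2 and 9.99 CPM in wild type and 30.5, 21.2 and 30.2 CPM in Hoxa+/- Hoxc-/- kidneys (log2 fold change 1.18 ± 0.20, adjusted p 0.0339), and Peg3 had 272, 247 and 220.5 CPM against 335, 405 and 427 CPM. Peg3 passed in 2 and Zim1 in 1 of the 6 leave-out fits, and in the GC-adjusted fit Peg3 lost its call (log2 fold change 0.50 against 0.66). Neither passed against wild type in the fit of all 12 libraries (adjusted p 0.406 for Peg3 and 0.144 for Zim1). Igf2-linked H19 was the most abundant member and overlapped between the groups, with a log2 fold change of 0.16.

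Extracellular matrix genes had a median log2 fold change of 0.40 over the 27 tested, and 24 of the 27 were above 0. In edgeR 7 were called higher, against 0.836% of all genes tested. Lum, a small proteoglycan that binds collagen fibrils, was at 17.4, 15.2 and 12.6 CPM in wild type and at 27.1, 35.9 and 32.6 CPM in Hoxa+/- Hoxc-/- kidneys. Matn2, a matrix adaptor protein, was at 57.0, 60.3 and 60.3 CPM against 89.8, 89.7 and 98.2 CPM. Both rose without overlap between the groups, Lum by 1.08 ± 0.15 on the log2 scale (adjusted p 0.0196) and Matn2 by 0.65 ± 0.07 (adjusted p 0.00593). The fibrillar collagen Col3a1, the most abundant gene of the list, had 1632, 1660.5 and 1464 CPM in wild type and 2087, 2314 and 2442 CPM in Hoxa+/- Hoxc-/- kidneys. Postn, a matrix protein that binds collagen and integrins, had 122, 114.8 and 121 CPM against 176, 172 and 232 CPM. The log2 fold changes of Col3a1 and Postn were 0.52 ± 0.09 and 0.69 ± 0.12, with adjusted p of 0.0375 and 0.0376. Col8a2, Col6a1 and Col6a2 rose by 0.64, 0.46 and 0.45 on the log2 scale. Col6a1 and Col6a2 lie 85.2 kb apart, and each passed in 0 of the 6 leave-out fits. Matn2 passed in all 6 of these fits, and Lum, Col3a1, Postn and Col8a2 passed in 2 each. Of the 7 called genes, Lum and Matn2 kept their calls in the GC-adjusted fit, and Col3a1, Postn, Col8a2, Col6a1 and Col6a2 did not, with log2 fold changes there of 0.46, 0.74, 0.53, 0.38 and 0.28. In the fit of all 12 libraries Lum and Col8a2 passed against wild type (adjusted p 0.0282 and 0.038). Matn2, Col3a1, Postn, Col6a1 and Col6a2 did not pass there (adjusted p 0.0515, 0.14, 0.257, 0.169 and 0.311). The count for the list depended on the tool: DESeq2 called 16 of the 27 genes, and limma on the deposited log2 values called 0, beside 8.29% and 0.654% of all genes tested. Col1a1, Dcn, Lox and Eln had log2 fold changes of 0.93, 0.34, 0.25 and 0.64 and adjusted p of 0.0687, 0.107, 0.29 and 0.185. Col1a1 spread widely among the Hoxa+/- Hoxc-/- libraries, at 1075, 1781 and 1987 CPM against 828, 849 and 874 CPM in wild type. The study names these genes as higher in the kidneys labelled Hoxa-/- Hoxc-/-, another genotype than the one compared here. In the fit of all 12 libraries their log2 fold changes over wild type in that genotype were 1.88, 2.08, 1.48 and 1.02. All passed the threshold there (adjusted p 0.00155, 0.000154, 0.00524 and 0.0302).

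Among 20 genes of the renal stroma, 3 rose in edgeR, against 0.836% of all genes tested, and 0 fell, with a median log2 fold change of 0.14. In limma 0 of the 20 passed, and in DESeq2 7 (0.654% and 8.29% of all genes tested). Smoc2, a secreted calcium-binding matrix protein, measured 64.2, 65.1 and 74.7 CPM in wild type and 95.04, 104 and 120 CPM in Hoxa+/- Hoxc-/- kidneys. Ntn1, the secreted guidance factor netrin 1, measured 101, 88.4 and 96.5 CPM against 127, 172 and 173 CPM. Neither overlapped between the groups, and the log2 fold changes were 0.65 ± 0.10 and 0.72 ± 0.13 (adjusted p 0.0313 and 0.041), with Dlk1 as the third gene of the list to rise. Smoc2 and Ntn1 lost their calls in the GC-adjusted fit, at log2 fold changes of 0.557 and 0.556, and Dlk1 kept it. Dlk1 is also counted in the imprinted region above. The study saw its protein in both proximal tubules and interstitial cells of other Hox mutants, so its rise is not assigned to the stroma. Foxd1, the transcription factor that marks stromal progenitors, was at 21.9, 25.7 and 27.1 CPM against 29.5, 36.8 and 36.6 CPM, without overlap but with an adjusted p of 0.0985. Of 19 basement membrane genes, with a median of 0.17, edgeR called 0, DESeq2 called 1 and 4 had an unadjusted p under 0.05, beside 2.36%, 8.29% and 21.1% of all genes tested. Col4a1, the most abundant of them, measured 2688, 2487 and 2283 CPM against 2960.4, 2877 and 2851 CPM. Hoxa-/- Hoxc-/- kidneys held more RNA of several of these matrix genes: in the fit of all 12 libraries Lum averaged 14.7, 31.5, 30.9 and 121 CPM in the 4 genotypes and Col3a1 averaged 1546, 1882, 2209 and 4549 CPM. Hoxa-/- Hoxc-/- kidneys were the highest for both, and Hoxa+/- Hoxc-/- differed from them past the threshold (log2 difference -1.96 with adjusted p 0.000257 for Lum, and -1.04 with 0.00112 for Col3a1). Against Hoxa-/- Hoxc+/- kidneys the differences of Lum and Col3a1 had adjusted p of 0.963 and 0.391, and against wild type, in this fit, 0.0282 and 0.14.

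Nephron progenitors of the cap mesenchyme express Six2 and Cited1 and secrete Gdnf, which signals through Ret on the tips of the ureteric bud. Of 16 cap mesenchyme genes 0 passed the threshold in edgeR, 7 had an unadjusted p under 0.05 (21.1% of all genes tested did), DESeq2 called 4 and limma on the deposited log2 values called 1 (8.29% and 0.654% of all genes tested). The median log2 fold change of the list was -0.19, with 13 members under 0. Six2 was at 69.0, 86.1 and 107 CPM in wild type and 64.3, 88.9 and 82.5 CPM in Hoxa+/- Hoxc-/- kidneys, and Gdnf at 30.6, 36.1 and 40.6 CPM against 25.5, 32.5 and 34.2 CPM. Both overlapped between the groups, with log2 fold changes of -0.15 ± 0.18 and -0.22 ± 0.14. Cited1 was at 36.9, 50.4 and 48.05 CPM against 26.1, 35.1 and 29.8 CPM, free of overlap but with an adjusted p of 0.0979. The summed level of the list was 971, 1193 and 1257 CPM in wild type and 869, 1016 and 1075 CPM in Hoxa+/- Hoxc-/- kidneys, with Capn6 the most abundant member.

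In edgeR Ret fell in the ureteric bud tip list, as 1 of 15 genes, beside 1.53% of all genes tested. DESeq2 called 2 of the 15 and limma on the deposited log2 values 0, beside 8.29% and 0.654% of all genes tested. An unadjusted p under 0.05 was found for 5 of them, against 21.1% of all genes tested. Ret measured 37.5, 40.1 and 41.9 CPM in wild type and 24.7, 30.3 and 28.3 CPM in Hoxa+/- Hoxc-/- kidneys. Every mutant library was below every wild type library (log2 fold change -0.52 ± 0.10, adjusted p 0.0435), and the call held in the GC-adjusted fit. Ret passed in 1 of the 6 leave-out fits and in 6 of the 10 other settings. Dusp6 and Spry1, feedback inhibitors of the signal that Ret sends and the most abundant of the list, had log2 fold changes of -0.20 and 0.01 and did not pass. Dkk1, a secreted inhibitor of Wnt signalling, was the 1 gene of 20 in the early nephron list to fall, from 26.1, 31.9 and 35.0 CPM to 16.0, 18.502 and 20.8 CPM. Its groups did not overlap (log2 fold change -0.75 ± 0.14, adjusted p 0.0456), and the call did not hold in the GC-adjusted fit (log2 fold change -0.62). In the 4 genotypes of the 12-library fit Ret averaged 38.8, 33.5, 26.9 and 11.4 CPM, Gdnf 34.9, 41.4, 29.8 and 10.6 CPM and Six2 85.3, 103, 76.1 and 33.2 CPM. Among Hoxa-/- Hoxc+/- kidneys the library high in Dlk1 held 65.6 CPM of Gdnf and 164 CPM of Six2, and the other 2 held 31.9 and 26.7 CPM and 76.7 and 69.7 CPM, under the wild type means. All 3 genes were lowest in Hoxa-/- Hoxc-/- kidneys, from which Hoxa+/- Hoxc-/- kidneys differed past the threshold in Ret (adjusted p 0.0142) and Gdnf (0.0213) and not in Six2 (0.133). Against wild type, Ret and Dkk1 did not pass in the fit of all 12 libraries (adjusted p 0.5 and 0.385).

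**Figure D5:**
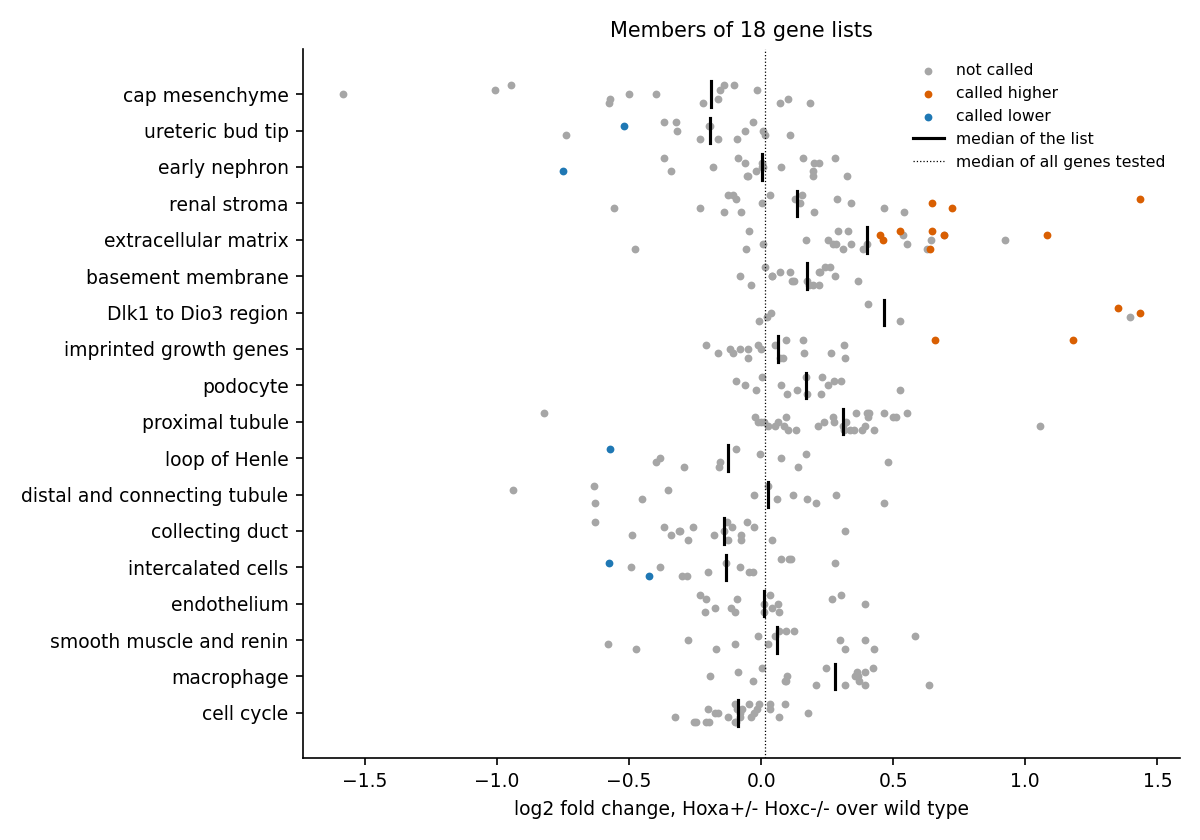
Log2 fold change of the members of 18 gene lists, 1 point per gene, with called genes in orange (higher) and blue (lower), the median of each list as a bar and the median of all genes tested as a dotted line. Extracellular matrix, with 7 called higher, has a median of 0.40, renal stroma, with 3 called higher, has one of 0.14, and cap mesenchyme and ureteric bud tip have medians of -0.19.

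Sostdc1, an inhibitor of BMP and Wnt signals, was the 1 of 12 genes of the loop of Henle list past the threshold, with 270.5, 259 and 248 CPM in wild type and 200.4, 156 and 167 CPM in Hoxa+/- Hoxc-/- kidneys. Atp6v1g3 and Atp6v0d2, proton pump subunits and the 2 called among 15 genes of intercalated cells, had 20.7, 20.2 and 23.4 CPM against 15.3, 14.8 and 13.1 CPM and 26.98, 24.4 and 27.2 CPM against 18.9, 20.1 and 19.5 CPM. These 3 genes fell without overlap between the groups, by log2 fold changes of -0.57 ± 0.10, -0.57 ± 0.10 and -0.43 ± 0.08 (adjusted p 0.0421, 0.0425 and 0.0496). None of them kept its call in the GC-adjusted fit, where the log2 fold changes were -0.37, -0.24 and -0.21. Foxi1, the transcription factor of intercalated cells, overlapped between the groups at 29.1, 28.1 and 33.9 CPM against 27.5, 34.1 and 24.5 CPM. In edgeR, which called 2.36% of all genes tested, 0 genes passed among 15 of podocytes, 33 of the proximal tubule, 13 of the distal and connecting tubule and 19 of the collecting duct, with medians of 0.17, 0.31, 0.03 and -0.14. In the same order, 5, 0, 4 and 5 of these had an unadjusted p under 0.05, and DESeq2 called 2, 0, 2 and 2, beside 21.1% and 8.29% of all genes tested. Lrp2, the endocytic receptor megalin of the proximal tubule, ran from 434 to 1091 CPM in wild type and from 579 to 828 CPM in Hoxa+/- Hoxc-/- kidneys. Nphs1, the slit diaphragm protein nephrin, had 66.8, 70.6 and 57.4 CPM against 104, 91.1 and 84.9 CPM, without overlap and short of the threshold.

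The most abundant genes past the threshold include parts of the cytoskeleton, chromatin and RNA processing. Actg1, the gamma actin of non-muscle cells, had 1566, 1467 and 1406 CPM in wild type and 2943, 2826 and 2611 CPM in Hoxa+/- Hoxc-/- kidneys. Hspa8, a constitutive chaperone, had 1866, 1929 and 1988 CPM against 2489.6, 2485 and 2496 CPM. Actg1 rose by 0.92 ± 0.08 on the log2 scale (adjusted p 0.00304) and passed in all 6 leave-out fits, whereas Hspa8 (0.37 ± 0.07, adjusted p 0.0432) passed in 1 of them. Actg1 also differed from both other mutant genotypes, with adjusted p of 0.00421 and 0.0151. H3f3a, which encodes histone H3.3, fell from 783, 996 and 1014 CPM to 569, 601 and 665 CPM, and the splicing factor gene Srsf3 fell from 485, 556 and 567 CPM to 383, 401 and 409 CPM. Ube2d3, a ubiquitin-conjugating enzyme, had 443, 454 and 433 CPM against 359.7, 321 and 313 CPM. Ppp1cb, a catalytic subunit of protein phosphatase 1, had 406, 386 and 389 CPM against 280.3, 255 and 259 CPM. The log2 fold changes of these 4 ran from -0.61 for H3f3a to -0.42 for Ube2d3, without overlap between the groups. Of the 4, Ppp1cb kept its call in the GC-adjusted fit, while H3f3a, Srsf3, Ube2d3 and also Hspa8 lost theirs at log2 fold changes of -0.56, -0.42, -0.41 and 0.36.

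Base composition moved with direction. Genes called lower had a median exonic GC content of 42.1%, genes called higher 53.0% and all genes tested 50.3%. In the fifth of genes lowest in GC, 171 were called lower and 17 higher, and in the fifth highest in GC 7 were called lower and 43 higher. In the GC-adjusted fit 119 genes passed, 59 higher and 60 lower, and 116 of them belong to the 376. Genes of the X chromosome had a median log2 fold change of -0.11 and a median GC content of 45.9%, and 25 of 529 (4.73%) were called, all lower, beside 1.53% of all genes tested. In the leave-out fits X-linked genes were 3 of 63 calls without the female library M2 and 4 of 60 without W2. They were 5 of 70 without W3, 8 of 99 without M3, 24 of 339 without M1 and 30 of 549 without W1. With Xist as a covariate they were 3 of 61, and in the GC-adjusted fit 8 of 119, against 25 of 376 without these changes. The part of sex and of base composition in these calls was not tested beyond these fits. Of 19 pairs of called neighbours within 100 kb, 2 moved in opposite directions, Paip1 with Gm7120 and Cd9 with Vwf. The other 17 include the 3 pairs among Mettl7a3, AB099516 and Mettl7a2, 1 of which overlaps on the genome, and the overlapping pair Styx and Gnpnat1, and no share for chance was computed.

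In the lists of other cell types and processes, Meg3 was the 1 gene called in edgeR among 20 nuclear-retained RNAs, beside 2.36% of all genes tested. The lists of endothelium, smooth muscle and renin, macrophages, cell cycle, immediate early and stress genes and retinoic acid held 0 called genes among 16, 16, 18, 26, 34 and 16 tested. Of these, 5, 3, 6, 1, 6 and 7 had an unadjusted p under 0.05, and DESeq2 called 3, 2, 2, 0, 2 and 2, beside the same 21.1% and 8.29% of all genes tested. The medians were 0.01, 0.06, 0.28, -0.09, 0.07 and -0.05. Macrophage genes summed to 242, 219.96 and 204 CPM in wild type and 252, 268 and 296 CPM in Hoxa+/- Hoxc-/- kidneys, without overlap and with Stab1 as the most abundant member. Cell cycle genes summed to 3046, 3421 and 3426 CPM against 2553, 3411 and 3411 CPM, lowest in M1. For tissues beside the kidney, 0 of 12 liver, 7 erythroid, 10 skeletal muscle, 6 adrenal cortex, 6 adrenal medulla, 4 gonad, 3 fat, 9 urothelium and 7 Schwann cell genes passed in edgeR. In the same order the medians were 0.82, 1.24, 0.10, -0.11, -0.17, 0.15, -0.35, -0.31 and 0.10. Of the liver genes 11 and of the erythroid genes all 7 were above 0. DESeq2 called 4, 1, 1, 1, 0, 0, 1, 0 and 0 of these lists, beside 8.29% of all genes tested. Liver genes summed to 100.1, 109 and 70.4 CPM against 165, 90.6 and 132 CPM, with Afp as the most abundant, and 6 of the 12 had an unadjusted p under 0.05 (DESeq2 called 4). Genes of red cells summed to 573, 1355 and 1415 CPM against 561, 1876 and 6075 CPM, and M3 was the highest. Urothelial genes summed to 63.5, 83.7 and 77.5 CPM against 54.3, 80.5 and 37.4 CPM, with Upk3a as the most abundant. The sums ran from 96.1 to 114.99 CPM for the adrenal cortex, most of it Scarb1, and from 223 to 314 CPM for fat, with Fabp4 as the most abundant.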

How the data were processed

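The files give 2 tables of 36186 genes for 12 libraries on mouse build mm10: expected counts, which the authors deposited as made and which are not whole in 40.9% of cases, and log2 values, which the authors deposited after a normalization that leaves the median of each gene over the libraries at 0. The authors analysed paired reads of 75 bases in Strand NGS and removed those that aligned at more than 1 position. How reads were assigned to genes and the strand of the libraries are not stated. Expected counts were rounded, 92 symbols listed more than once kept the bare symbol for the entry with most reads, and genes were matched to RefSeq GRCm38.p6 (33006 genes) and GENCODE release 21 (32117 genes). Genes passing filterByExpr (minimum count 10, minimum total 15) were scaled by TMM and tested with edgeR 4.0.16 by quasi-likelihood F-tests between the genotypes, 3 libraries each, in R 4.3.3. The threshold was a Benjamini-Hochberg adjusted p of 0.05 over all genes tested. CPM are counts per effective library size in units of 1e6, and values from the fit of all 12 libraries differ slightly because that fit has its own scaling. Other settings were RLE scaling, library size alone, 2 other filters, DESeq2 1.42.0, limma 3.58.1 on the deposited log2 values, all 12 libraries, per-library offsets from bins of GC content and exon length (the GC-adjusted fit), Xist as a covariate, no genes of X and Y, and leaving out each library. Members and gene lists were chosen with earlier results of these data known. Genes were named by rule: the mutated Hox genes and their paralogs, the 12 largest rises and falls with a mean of at least 1 CPM, the 10 most abundant genes called, up to 4 called and the 2 most abundant members of each of 34 lists, called genes near the Hoxa and Hoxc clusters, and genes named by the study. Others named were chosen after their values were seen. Some genes that the rule names are not reported here. A group at 0 counts was set to 3 counts for a bound, and intervals (95%, exact binomial) cover counting error only.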

Additional observations from a re-analysis of the deposited data

How the results depend on the processing

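Against 376 genes called (133 higher, 243 lower), DESeq2 called 1318 (554 higher, 764 lower), limma on the deposited log2 values 104 (50 and 54), the fit of all 12 libraries 149 (49 and 100), the GC-adjusted fit 119 (59 and 60) and the fit with Xist as a covariate 61 (29 and 32). Leaving out 1 library gave 60 to 549 genes, 27 to 216 higher and 33 to 333 lower. The causes were not tested, although fits without a library have fewer samples. The other 5 settings stayed within 1.5 times of each count. Of the 61 named genes called, 0 reversed in any setting, and 26 kept the call in limma, 28 with Xist, 35 in the fit of all 12 libraries and 39 in the GC-adjusted fit. The named genes that differed from Hoxa-/- Hoxc+/- and Hoxa-/- Hoxc-/- kidneys numbered 23 and 49, and 32 and 51 in DESeq2. With 3 libraries per genotype and a common biological coefficient of variation of 0.158, small changes are missed, and genes at a few counts have wide intervals.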
